A study of Mus musculus with 4 samples.

Results

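Genes of the oligodendrocyte lineage, 9 in all, were followed in cultured neural stem/progenitor cells (NSPCs) treated with the poly(ADP-ribose) polymerase inhibitor PJ34. The 9 genes are *Olig1*, *Olig2*, *Sox10*, *Nkx2-2*, *Pdgfra*, *Cspg4*, *Gpr17*, *Cnp* and *Mbp*. They were chosen by name, as the genes that the array's annotation lists under these symbols, of 35019 genes on the array. They are read by 12 of its 55681 probes. All 9 genes and 11 of the 12 probes passed the filter on dim signals.

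Oligodendrocytes are the cells that wrap axons of the brain and spinal cord in myelin. They arise from neural progenitors through a precursor stage, which transcription factors of the Olig, Sox and Nkx families specify and which is kept dividing by platelet-derived growth factor. Precursors then leave the cell cycle and switch on the genes of the myelin sheath. Neural stem cells in culture can give rise to neurons, astrocytes and oligodendrocytes, and Olig2 is also made by multipotent progenitors.

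The data are 4 arrays (Agilent SurePrint G3, mouse gene expression), each with 2 dyes, 2 with RNA of wild-type NSPCs and 2 with RNA of *Trp53*-/- NSPCs. On each array, RNA of cells treated with 20 μM PJ34 carried the dye Cy5 and RNA of untreated control cells carried Cy3. The labels give the strain Slc:ICR and embryonic day 13.5 for all cells, which were grown in neurosphere medium with EGF and basic FGF. The *Trp53*-/- cells lack p53 in all cell types and derive from *Trp53*-heterozygous mice of another source, whose strain background is not given in the sources used here, and each total RNA was prepared independently (n = 2 arrays per genotype). How long the cells of the arrays were exposed to PJ34 is not given in the sources used here. No dye was swapped, so that within a genotype the effect of PJ34 and a bias of the dyes for a probe cannot be told apart.

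The labels were checked first. *Trp53*, the deleted gene, had a control level of 8.28 and 8.51 (log2 intensity) on the wild-type arrays and of 7.56 and 7.82 on the *Trp53*-/- arrays, and was well above background on all 4. Whether its probe lies in the deleted part is not given. *Cdkn1a*, which encodes the cell cycle inhibitor p21 and is a target of p53, gave 1.84 and 1.23 on the wild-type arrays (log2 of PJ34 over control) and -0.48 and -0.74 on the *Trp53*-/- arrays. On replicate 2 of *Trp53*-/-, the 2 channels differed in sex-linked transcripts. *Xist*, transcribed from the inactive X chromosome of females, was well above background only in the control channel (log2 ratio -3.08), and the Y-linked *Ddx3y* only in the PJ34 channel (3.12). The treated and the control RNA of that array thus differ in more than PJ34, and values without it are given beside the results in *Trp53*-/-. Between 21508 and 24540 probes per array were well above background in the control channel and between 26085 and 27159 in the PJ34 channel. All 10 markers of neural stem/progenitor cells examined, such as *Nes* and *Sox2*, were well above background in the control channel of every array.

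The PJ34 response was measured as a log2 ratio, PJ34 over control, after the dye trend of each array had been removed by loess. A gene was called when limma's moderated test gave *p* below 0.05 and Storey's *q* below 0.05 with a change of more than 2-fold. By this rule 0 of the 9 lineage genes were called in wild-type, where 0.504% of all 19632 genes were, and 0 of 9 in *Trp53*-/-, where 0.372% were. At an unadjusted *p* below 0.05 there were 4 members in wild-type and 7 in *Trp53*-/-, beside 32.1% and 31.1% of all genes. Without the limit on the fold change, 4 of 9 members passed *p* and *q* in wild-type and 6 of 9 in *Trp53*-/-, and all of them were lower with PJ34. Of all genes, 25.3% passed in wild-type and 23.6% in *Trp53*-/-, and 11.5% and 10.7% passed in that direction. The median log2 ratio of the members was 0.00751 in wild-type and -0.304 in *Trp53*-/-, beside medians of 0.03005 and 0.0327 over all genes.

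These directions are relative to the dye trend. When each array was instead centred on its median, the median over all kept genes was 0.466 in wild-type and 0.638 in *Trp53*-/-, and each of these members except *Cspg4* turned above 0. Relative to the median of all genes they stayed lower, by between 0.0921 (*Olig2*) and 0.338 (*Gpr17*) in wild-type and by between 0.0453 (*Gpr17*) and 0.702 (*Cspg4*) in *Trp53*-/-. With the scanner software's own ratios, 0 members passed *p* and *q* in either genotype. RNA of whole cultures was measured, so that fewer cells of a type and less RNA per cell cannot be told apart.

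**Figure D1:**
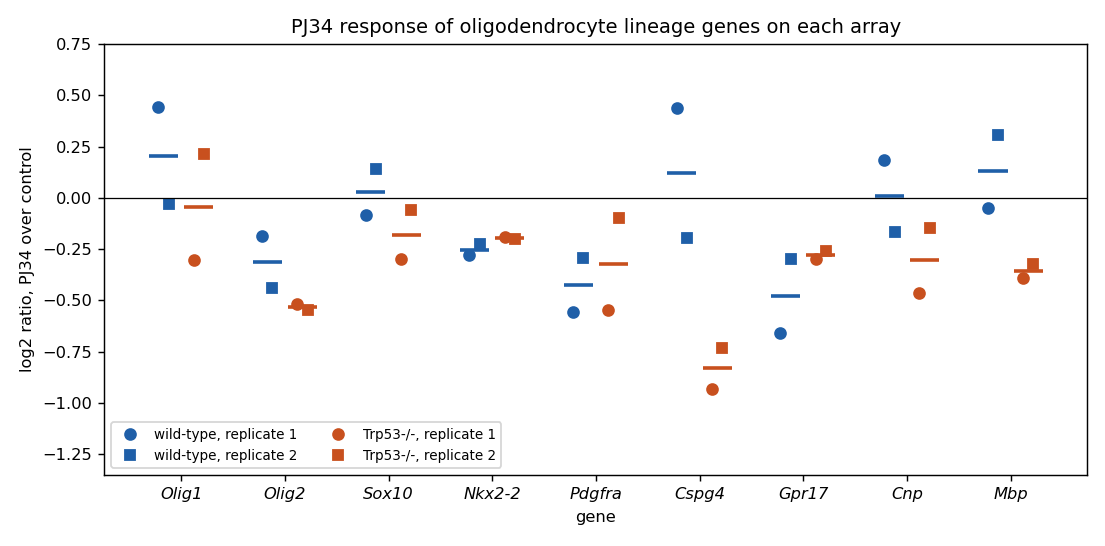
Log2 ratio of PJ34 over control (y axis) of the 9 lineage genes (x axis) on each of the 4 arrays, after loess. Points are arrays, and bars are the means of the 2 arrays of a genotype. Cspg4 in Trp53-/- lies lowest, at -0.93 and -0.73, while its wild-type arrays lie on both sides of 0; with centring on the array median in place of loess, the other genotype means lie above 0.

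Among the transcription factors, *Olig2*, a basic helix-loop-helix factor that specifies the lineage, was lower with PJ34 on all 4 arrays after loess, while its means were 0.37 and 0.43 with median centring. Its log2 ratios were -0.18 and -0.44 in wild-type and -0.52 and -0.55 in *Trp53*-/-. The mean was -0.31 ± 0.096 (SE, n = 2) in wild-type (*q* = 0.0244) and -0.53 ± 0.096 in *Trp53*-/- (*q* = 0.00288), or 1.24-fold and 1.45-fold lower. This SE, like those below, comes from a spread that the model shares between genotypes. The SD of the 2 arrays was 0.182 in wild-type and 0.0231 in *Trp53*-/-. The wild-type result was lost without replicate 2 of wild-type (-0.18, *q* = 0.285). Without replicate 2 of *Trp53*-/- the value there was -0.52 (*q* = 0.0391). The genotypes did not overlap, but their difference of 0.22 did not pass the test (95% confidence interval -0.08 to 0.52, *q* = 0.369). The probe of *Olig2* lies at chr16:91228470-91228529 (mm9).

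*Olig1*, the neighbouring gene of the same family, gave log2 ratios of 0.44 and -0.03 on the wild-type arrays and of -0.30 and 0.22 in *Trp53*-/-. The arrays of each genotype thus lay on both sides of 0, and the 95% confidence intervals were -0.11 to 0.52 in wild-type and -0.35 to 0.27 in *Trp53*-/-. *Sox10*, a factor needed for the differentiation of oligodendrocytes, had ratios of -0.09 and 0.14 in wild-type and of -0.30 and -0.06 in *Trp53*-/-. It passed the test in neither genotype (*q* = 0.45 and 0.126), with intervals of -0.20 to 0.25 and of -0.40 to 0.05.

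*Nkx2-2*, a homeodomain factor of late precursors, had ratios of -0.28 and -0.23 in wild-type and of -0.19 and -0.20 in *Trp53*-/- on its brighter probe. The wild-type mean of -0.25 passed the test (*q* = 0.0367) but not without replicate 1 (*q* = 0.217) or replicate 2 (*q* = 0.136) of wild-type, and the *Trp53*-/- mean of -0.20 did not (*q* = 0.0747). Its second probe read otherwise, with 0.08 and 0.35 in wild-type and 0.29 and -0.35 in *Trp53*-/-, so that no direction is settled for this gene.

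Of the receptors and surface proteins, *Pdgfra* encodes the receptor through which platelet-derived growth factor acts on precursors. Its ratios, each the mean of up to 10 spots, were -0.56 and -0.30 in wild-type and -0.55 and -0.10 in *Trp53*-/-. It fell in both genotypes, by 0.43 in wild-type (*q* = 0.0169) and by 0.32 in *Trp53*-/- (*q* = 0.0465), and the genotypes overlapped. Without replicate 1 of *Trp53*-/- the remaining array gave -0.10 (*q* = 0.427), and without replicate 1 of wild-type -0.30 (*q* = 0.151).

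*Gpr17*, a G protein-coupled receptor of precursors about to differentiate, had ratios of -0.66 and -0.30 in wild-type and of -0.30 and -0.26 in *Trp53*-/-. It fell by 0.48 in wild-type (*q* = 0.00571) and by 0.28 in *Trp53*-/- (*q* = 0.0477). The difference between genotypes was -0.20, with an interval of -0.52 to 0.13 (*q* = 0.432). Without replicate 1 of wild-type the value there was -0.30 (*q* = 0.122), and in *Trp53*-/- the *q* rose to 0.217 without replicate 2 and to 0.196 without replicate 1.

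*Cspg4*, which encodes the NG2 proteoglycan of precursors and pericytes, was the 1 member whose response differed between genotypes. Its ratios were 0.44 and -0.19 in wild-type and -0.93 and -0.73 in *Trp53*-/-. The 2 *Trp53*-/- arrays were both lower than either wild-type array, while the wild-type arrays disagreed in sign. In *Trp53*-/- it fell by 0.83 ± 0.136 (SE, n = 2; 1.78-fold; *q* = 0.00197; -0.93 and *q* = 0.00698 without replicate 2), and in wild-type the mean was 0.12 (interval -0.18 to 0.42, *q* = 0.295). The wild-type minus *Trp53*-/- difference was 0.95 (interval 0.53 to 1.38, *q* = 0.0335). Of all genes, 1.32% passed *p* and *q* in that direction without the fold limit, and by the full rule 0 members were called, where 0.484% of all genes were. In either direction 1.8% of all genes passed *p* and *q*, and 2 members had an unadjusted *p* below 0.05, beside 14.5% of all genes. The difference was 1.05 without replicate 2 of *Trp53*-/- (*q* = 0.0373) and 0.85 without replicate 1 (*q* = 0.0613). It was 0.64 without replicate 1 of wild-type (*q* = 0.0385) and 1.27 without replicate 2 (*q* = 2.46e-05). It stayed positive but missed the threshold without background correction (*q* = 0.0578), with an offset of 16 (*q* = 0.13), with the scanner software's ratios (*q* = 0.277) and with median centring (*q* = 0.249). The probe lies at chr9:56746627-56746686 (mm9). Of the markers of endothelium and pericytes, *Cdh5*, *Cldn5*, *Rgs5* and *Anpep* were not well above background in any channel, and *Kdr* and *Pecam1* did not pass the test with PJ34 in either genotype.

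*Cnp* and *Mbp* belong to differentiating and myelinating cells. *Cnp* encodes an enzyme of the non-compact myelin and *Mbp* the myelin basic protein. *Cnp* had ratios of 0.18 and -0.17 in wild-type and of -0.46 and -0.14 in *Trp53*-/-. It did not pass the test in wild-type (interval -0.25 to 0.26) and passed it narrowly in *Trp53*-/-, at -0.30 (*q* = 0.049), a result lost without either *Trp53*-/- array (*q* = 0.0702 without replicate 2 and 0.359 without replicate 1).

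*Mbp* had ratios of -0.05 and 0.31 in wild-type and of -0.39 and -0.32 in *Trp53*-/- on its brightest probe. In *Trp53*-/- it fell by 0.36 (*q* = 0.0206), but not without replicate 2 (*q* = 0.116) or without replicate 1 (*q* = 0.128). Its second probe read -0.23 and -0.01 in *Trp53*-/-, a mean of -0.12 that did not pass (*q* = 0.211). The mean of the kept probes there was -0.24 (*q* = 0.0492). On the brightest probe both *Trp53*-/- arrays were lower than both wild-type arrays. The difference of 0.49 between genotypes had an interval of 0.16 to 0.82 but did not pass over all genes (*q* = 0.109). It did pass without replicate 1 of wild-type, at 0.67. In all, the ratios of the genotypes did not overlap for 4 of 9 members, beside 45.2% of all genes. Without replicate 2 of *Trp53*-/-, 3 members passed *p* and *q* there, and without replicate 1, 2 members did.

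The promoters of the members that fell in *Trp53*-/- are shown as the sequence context in which these responses stand, since E-boxes (CANNTG) are the sites that Olig2 and other basic helix-loop-helix factors bind. RefSeq promoters (GRCm38.p6) were found for 5 of the 9 members, 4 of which passed *p* and *q* in *Trp53*-/-. Each line gives the 250 bases before the annotated start, on the plus strand, with E-boxes in capitals. They lie at chr16:91225300-91225549 (*Olig2*), chr5:75152001-75152250 (*Pdgfra*), chr9:56864854-56865103 (*Cspg4*) and chr11:100574689-100574938 (*Cnp*).
Olig2: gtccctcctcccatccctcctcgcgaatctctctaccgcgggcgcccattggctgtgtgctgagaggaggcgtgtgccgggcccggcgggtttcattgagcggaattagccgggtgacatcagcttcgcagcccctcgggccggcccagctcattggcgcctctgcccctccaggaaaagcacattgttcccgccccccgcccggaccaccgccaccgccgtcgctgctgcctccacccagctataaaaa
Pdgfra: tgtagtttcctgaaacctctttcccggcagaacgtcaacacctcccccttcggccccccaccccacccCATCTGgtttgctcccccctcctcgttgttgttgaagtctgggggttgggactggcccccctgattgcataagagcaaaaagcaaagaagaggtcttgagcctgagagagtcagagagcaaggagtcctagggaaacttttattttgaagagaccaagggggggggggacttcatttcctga
Cspg4: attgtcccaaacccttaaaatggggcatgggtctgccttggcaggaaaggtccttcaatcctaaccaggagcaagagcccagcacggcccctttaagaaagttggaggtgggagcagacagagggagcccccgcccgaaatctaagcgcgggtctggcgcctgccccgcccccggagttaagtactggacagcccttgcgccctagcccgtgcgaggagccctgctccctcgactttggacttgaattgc
Cnp: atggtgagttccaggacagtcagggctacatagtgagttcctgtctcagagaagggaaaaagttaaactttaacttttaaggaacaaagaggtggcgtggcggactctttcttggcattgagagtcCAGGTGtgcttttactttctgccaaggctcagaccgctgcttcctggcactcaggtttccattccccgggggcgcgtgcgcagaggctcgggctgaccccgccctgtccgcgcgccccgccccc

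The pattern CANNTG is its own reverse complement, so that 1 search covers both strands. It stood once in the window of *Pdgfra* and once in that of *Cnp*, and these letters were not in the windows of *Olig2* and *Cspg4*. Of 32851 promoter windows of this length, 66.2% held at least 1, with a median of 1. The windows held between 54.4% (*Pdgfra*) and 66.8% (*Olig2*) G and C, beside a median of 52.4% over all windows.

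Untreated cells of the genotypes were compared through the control channel. Its log2 intensities were normalized between arrays, and levels are comparable between arrays for a given probe only. *Mbp* stood 3.95-fold higher in *Trp53*-/- than in wild-type controls and was the 1 member called, where 4.75% of all 16862 genes tested were. *Pdgfra* was lower, and with *Mbp* made 2 members past *p* and *q* without the fold limit. Of all genes, 9.33% passed so, 4.66% higher and 4.67% lower. In all, 5 members had an unadjusted *p* below 0.05, beside 24.9% of all genes. The median difference of the members, *Trp53*-/- minus wild-type, was 0.486, beside 0.01231 over all genes, and 6 of 9 members were higher. The levels of the genotypes did not overlap for 6 of 9 members, beside 57.2% of all genes. The Y-linked *Ddx3y* was well above background in the control channel of both wild-type arrays (8.252 and 8.055) and of neither *Trp53*-/- array. *Xist* was well above background in all 4, at 8.387 and 7.512 in wild-type and 9 and 8.998 in *Trp53*-/-. The 4 arrays had a slide and a scan each, and the wild-type and *Trp53*-/- cultures were separate. Genotype, sex of the cells, strain background, slide, scan and culture thus cannot be told apart in these levels. The same control channel is the denominator of the PJ34 ratios, so that the 2 kinds of comparison share data.

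**Figure D2:**
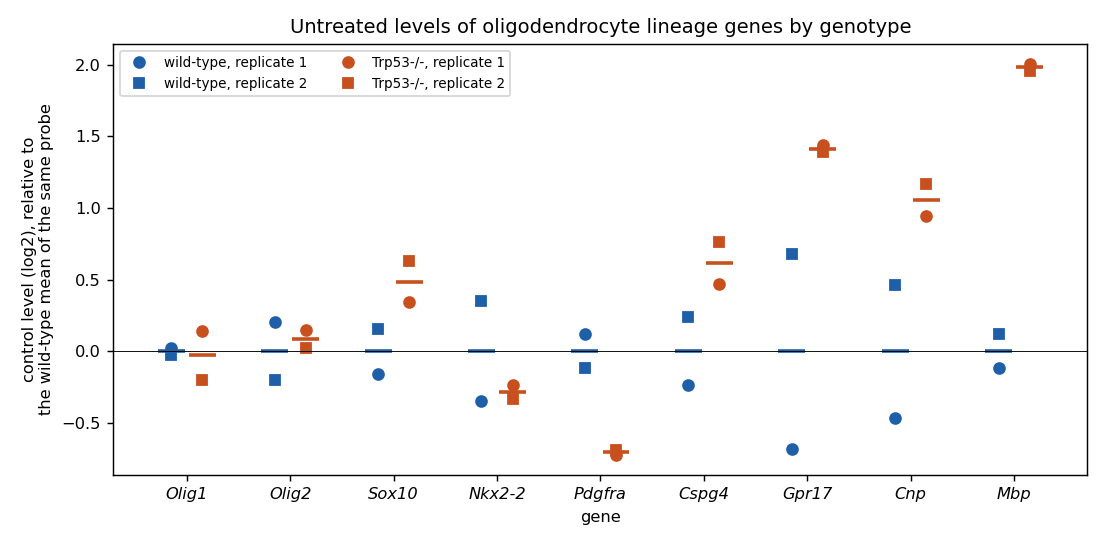
Control (untreated) level of the 9 lineage genes on each array (y axis, log2 intensity relative to the wild-type mean of the same probe; x axis, gene). Points are arrays and bars are genotype means. The 2 Trp53-/- arrays lie together and far above wild-type for Mbp, and below wild-type for Pdgfra.

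The control level of *Mbp* was 6.70 and 6.94 on the wild-type arrays and 8.83 and 8.78 on the *Trp53*-/- arrays. The SD between arrays was 0.169 in wild-type and 0.0364 in *Trp53*-/-, and the difference was 1.98 ± 0.183 (SE, n = 2 per genotype; interval 1.54 to 2.42; *q* = 0.00927). Without replicate 2 of *Trp53*-/- it was 2.01 (*q* = 0.044). With Cy3 intensities only centred on the median it was 1.88 and its *q* rose to 0.0512. It was 2.21 without background correction, 2.42 with an offset of 16 and 2.96 with scanner signals. The wild-type levels lay near the lowest control signal well above background on those arrays (6.34 and 6.55), and the size of the difference depends on the processing. The 3 probes of *Mbp* did not read alike. The second probe, A_52_P604195, differed by 0.22 (*q* = 0.267). The third, A_55_P1992160, did not pass the filter and was well above background in the control channel of 1 array. The mean of the kept probes gave 1.10 (*q* = 0.0184). Which transcripts of *Mbp* each probe covers was not determined.

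**Figure D3:**
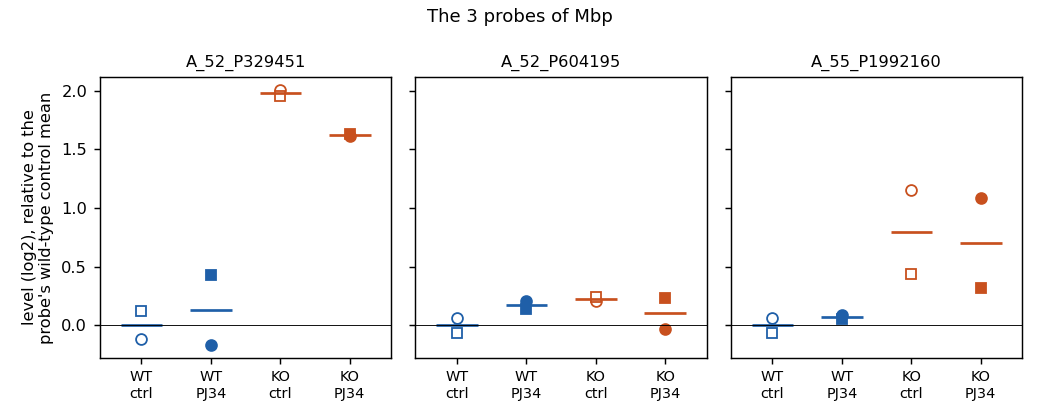
Levels of the 3 Mbp probes in the 4 conditions (y axis, log2 intensity relative to the probe's own wild-type control mean; WT, wild-type; KO, Trp53-/-; ctrl, control). Circles are replicate 1, squares replicate 2, open symbols control, filled symbols PJ34, and bars are means. The genotypes lie far apart on the first probe in both channels, they lie close on the second, where they overlap in the PJ34 channel, and the third was well above background in the control channel of 1 array.

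*Gpr17* and *Cnp* were higher in both *Trp53*-/- controls but varied between the wild-type arrays. *Gpr17* had levels of 9.27 and 10.63 in wild-type and of 11.38 and 11.34 in *Trp53*-/-, a difference of 1.41 (interval 0.39 to 2.44, *q* = 0.0633). *Cnp* had 9.99 and 10.91 in wild-type and 11.40 and 11.62 in *Trp53*-/-, a difference of 1.05 (interval 0.28 to 1.83, *q* = 0.065). Neither passed the test, but with all 4 arrays both were called with a separate channel model (*q* = 0.0418 for each). Both missed the threshold with scanner signals (*q* = 0.066 for *Gpr17* and 0.0749 for *Cnp*). They also missed it with no filter on dim probes (*q* = 0.134 and 0.127). Without replicate 2 of wild-type the differences of *Gpr17* and *Cnp* were 2.09 and 1.52, and without replicate 1 of wild-type 0.73 and 0.59. Without replicate 2 of *Trp53*-/- they were 1.437 and 0.945, and without replicate 1 of *Trp53*-/- 1.391 and 1.165.

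*Pdgfra* had control levels of 10.02 and 9.78 in wild-type and of 9.18 and 9.21 in *Trp53*-/-. It was 0.71 lower in *Trp53*-/- (1.63-fold; interval -1.15 to -0.27; *q* = 0.0483). This *q* is just under the threshold, and the result was lost without replicate 2 of *Trp53*-/-, where the difference was -0.73 (*q* = 0.67), and without replicate 1, where it was -0.69 (*q* = 0.468). *Cspg4* stood at 9.09 and 9.56 in wild-type and at 9.79 and 10.09 in *Trp53*-/-, a difference of 0.62 that did not pass (interval 0.05 to 1.18, *q* = 0.0953). Under PJ34, *Cspg4* was at 9.53 and 9.36 in wild-type and at 8.86 and 9.35 in *Trp53*-/-.

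Of the 4 transcription factors, 0 passed *p* and *q* between untreated genotypes, and 0 had an unadjusted *p* below 0.05. *Olig1* had levels of 14.90 and 14.85 in wild-type and of 15.02 and 14.68 in *Trp53*-/- (difference -0.03, interval -0.50 to 0.44). *Olig2* had 13.19 and 12.79 in wild-type and 13.13 and 13.01 in *Trp53*-/- (0.08, interval -0.42 to 0.59). Both genes overlapped between genotypes, while *Sox10*, at 7.89 and 8.20 against 8.39 and 8.67, did not (0.49, interval -0.02 to 0.99, *q* = 0.119). *Nkx2-2* had 8.20 and 8.90 in wild-type and 8.31 and 8.22 in *Trp53*-/- (-0.28, interval -0.92 to 0.35), and 0.60 on its second probe (*q* = 0.164).

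Other genes of the lineage were read from 3 lists, with directions again relative to the dye trend of each array. Of 26 further lineage transcription factors, 23 were tested with PJ34 and 0 were called in any comparison. Without the fold limit 5 rose and 2 fell in wild-type, and 8 rose and 2 fell in *Trp53*-/-, while over all genes 13.8% rose in wild-type and 12.9% in *Trp53*-/-. At an unadjusted *p* below 0.05 there were 8 and 12 of them, beside 32.1% and 31.1% of all genes. With median centring, 22 were higher and 0 lower in *Trp53*-/- without the fold limit, but the median of all genes was then itself 0.638. *Id2*, an inhibitor of basic helix-loop-helix factors, had the highest mean ratio of the list in each genotype, from 0.71 and 0.51 in wild-type and 0.40 and 0.58 in *Trp53*-/-. It rose in both genotypes (*q* = 0.00116 in wild-type and 0.00446 in *Trp53*-/-), but not without replicate 2 of *Trp53*-/- (*q* = 0.0934), where 2 factors of the list rose and 0 fell. The list's median was 0.0284 in wild-type and 0.15 in *Trp53*-/-. Untreated, 0 of 22 passed *p* and *q*, and 4 had an unadjusted *p* below 0.05, beside 24.9% of all genes. The genotype difference in response was passed by 0 of 23, and 3 had an unadjusted *p* below 0.05, beside 14.5% of all genes.

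Of 25 other surface, matrix and signalling genes of precursors, 21 were tested. Over all genes and without the fold limit, 13.8% rose and 11.5% fell in wild-type, and 12.9% rose and 10.7% fell in *Trp53*-/-. In wild-type 4 rose and 6 fell without the fold limit, and in *Trp53*-/- 6 fell and 0 rose, or 2 fell without replicate 2. With median centring the list's directions in *Trp53*-/- turned, to 15 higher and 0 lower, where the median of all genes was itself 0.638. *Pdgfa* encodes the ligand of the receptor *Pdgfra*. After loess it rose in wild-type with ratios of 0.65 and 0.75 and fell in *Trp53*-/- with ratios of -0.63 and -0.42. With median centring it was above 0 in both, at 1.37 and 0.41 (0.906 and -0.228 relative to the median of all genes). The difference of 1.22 (interval 0.93 to 1.52, *q* = 0.00197) was called, the 1 such call in the list, and 0.443% of all genes were called in that direction. It was 1.33 without replicate 2 of *Trp53*-/- (*q* = 0.00152), but *q* was 0.221 with the scanner software's ratios and 0.0863 with median centring. *Ncan*, a proteoglycan of the extracellular matrix, fell by 0.50 in wild-type (*q* = 0.00439) and by 0.63 in *Trp53*-/- (*q* = 0.00194, and 0.00729 without replicate 2). With median centring it was instead 0.15 and 0.28, below the median of all genes in both. *Bcan*, a proteoglycan of the same family, rose by 0.60 in wild-type (*q* = 0.00295) and was 0.21 in *Trp53*-/- (*q* = 0.121, and 0.232 without replicate 2). Among untreated cells, *C1ql1*, a secreted protein of the C1q family, was the 1 gene of this list called, at 1.02 (*q* = 0.039). It was well above background in the control channel of 1 of the 2 wild-type arrays. *C1ql1* thus passed the filter through *Trp53*-/- only and could hardly have been called lower. Its *q* was 0.555 without replicate 2 of *Trp53*-/-, 0.196 without replicate 1, 0.0656 with no filter on dim probes and 0.128 with Cy3 only centred on the median, and the difference was 2.04 with scanner signals.

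Of 33 other genes of myelin and mature oligodendrocytes, 28 were tested with PJ34. In *Trp53*-/-, 13 fell and 1 rose without the fold limit, and 3 were called, all lower, while 0.28% of all genes were called in that direction. In wild-type 8 fell and 1 rose, and 0 were called, with 12 at an unadjusted *p* below 0.05, beside 32.1% of all genes. Without the fold limit, 11.5% of all genes fell and 13.8% rose in wild-type, and 10.7% fell and 12.9% rose in *Trp53*-/-. With median centring the list's directions turned, with 14 higher and 1 lower in *Trp53*-/- and 9 higher and 1 lower in wild-type. In *Trp53*-/- 0 were then called. The median of all genes was itself 0.638 in *Trp53*-/- and 0.466 in wild-type with this setting. The list's median log2 ratio was -0.21 in *Trp53*-/- and -0.141 in wild-type. Among the called genes were *Mag*, a glycoprotein of the membrane facing the axon, and *Cldn11*, the tight junction protein of myelin.

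*Mag* had ratios of -1.14 and -1.57 in *Trp53*-/- and of -0.10 and -0.46 in wild-type. *Cldn11* had -1.36 and -0.80 in *Trp53*-/- and -0.25 and -0.21 in wild-type. Both were lower with PJ34 on all 4 arrays, and in *Trp53*-/- stayed below 0 with median centring, at -0.75 and -0.35. The difference between genotypes was called for *Mag* (1.07, interval 0.69 to 1.46, *q* = 0.0139) and passed *q* for *Cldn11* (0.85, interval 0.46 to 1.23, *q* = 0.0358). With an offset of 16, the scanner software's ratios or median centring, 0 genes of the list passed, so that *Cldn11* was lost. It was also lost without background correction, where *Mag* alone passed (*q* = 0.0286). For *Mag* the difference was 0.86 without replicate 2 of *Trp53*-/- (*q* = 0.0437), and with the scanner software's ratios, median centring or an offset of 16 its *q* was 0.266, 0.257 and 0.0971. *Pllp*, a membrane protein of myelin, had the lowest wild-type mean of the list, at -0.85, and -0.86 in *Trp53*-/- (*q* = 0.00124 and 0.0018), and -1.18 there without replicate 2. *Sirt2*, a deacetylase abundant in oligodendrocytes, had the highest wild-type mean (0.29, *q* = 0.0433). Without replicate 1 of wild-type it was 0.13. It missed the threshold without background correction (*q* = 0.0613), with an offset of 16 (*q* = 0.0784), with the scanner software's ratios (*q* = 0.146) and with no filter on dim probes (*q* = 0.0664). *Gpr37*, a receptor of oligodendrocytes, was the 1 gene counted as higher in *Trp53*-/-. It was not well above background in any control channel and passed the filter through the PJ34 channel alone, and without replicate 2 it missed the threshold (*q* = 0.404), so that no size is given. Without replicate 2 of *Trp53*-/-, 4 genes of the list were called there and 11 fell without the fold limit.

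**Figure D4:**
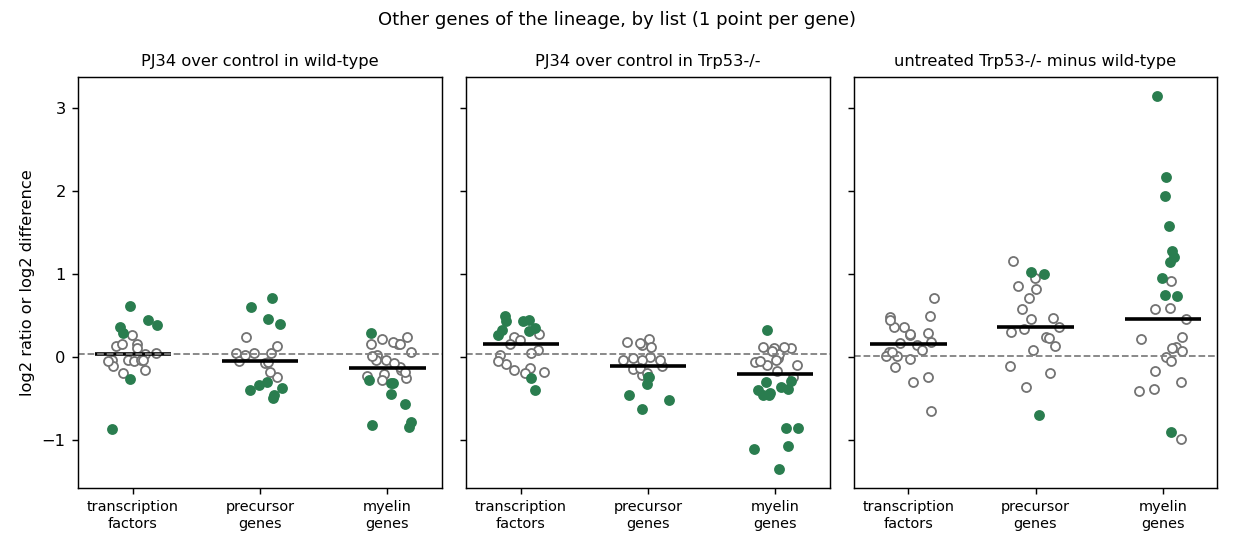
Log2 ratio (PJ34 over control, in wild-type and in Trp53-/-) or log2 difference of the untreated levels (y axis) of the genes of the 3 lists (x axis). Each point is a gene, filled where it passed p and q without the fold limit, black bars are list medians and the dashed line is the median of all genes; the ratios are after loess and lie higher with median centring. The myelin genes spread downward with PJ34 in Trp53-/- and upward in untreated Trp53-/- cells.

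Untreated, 7 of the 27 myelin genes tested were called, all higher in *Trp53*-/-, where 2.33% of all genes were called higher. Without the fold limit 10 were higher and 1, *Gjb1*, a gap junction protein, lower (-0.91, *q* = 0.039). Of all genes, 4.66% passed so as higher and 4.67% as lower. A gene could pass the filter through 1 genotype alone. *Fa2h*, *Mobp* and *Mal* passed through *Trp53*-/- only, as they were not well above background in the wild-type controls. So did *Aspa*, which was well above background in 1 of the 2 wild-type controls. Such genes could hardly have been called lower. *Cldn11* had levels of 7.24 and 7.71 in wild-type and of 9.79 and 9.51 in *Trp53*-/-, or 4.51-fold higher (*q* = 0.0102). *Nfasc*, a cell adhesion protein of the axon-glia junction, was 3.83-fold and *Mag* 2.99-fold higher. When any 1 array was left out, the log2 difference lay between 1.72 and 2.15 for *Nfasc* and between 1.05 and 2.11 for *Mag*. *Nfasc* missed the threshold in 2 of the alternatives. The *q* of *Mag* was 0.0348, but 0.0749 with no filter on dim probes, 0.0547 with scanner signals and 0.095 with Cy3 only centred on the median. *Sirt2* and *Pllp* were 2.30-fold and 2.21-fold higher. Each fell to a log2 difference of 0.75 without replicate 1 of wild-type, below the fold limit, and missed the threshold without either *Trp53*-/- array (*q* = 0.443 and 0.472 without replicate 2, 0.199 for each without replicate 1). *Fa2h*, an enzyme of myelin lipid synthesis, was not well above background in either wild-type control and was at least 2.03-fold higher in *Trp53*-/- (*q* = 0.0182). This bound compares the *Trp53*-/- mean with the higher of the probe's own signal and the lowest signal well above background on each wild-type array. The list's median difference was 0.454. The number called fell to 2 without replicate 2 of *Trp53*-/-, to 3 without replicate 1, to 4 with no or with a strict filter on dim probes, and to 0 with Cy3 intensities only centred on the median. *Cldn11* kept a difference between 1.94 and 2.41 when any 1 array was left out.

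**Figure D5:**
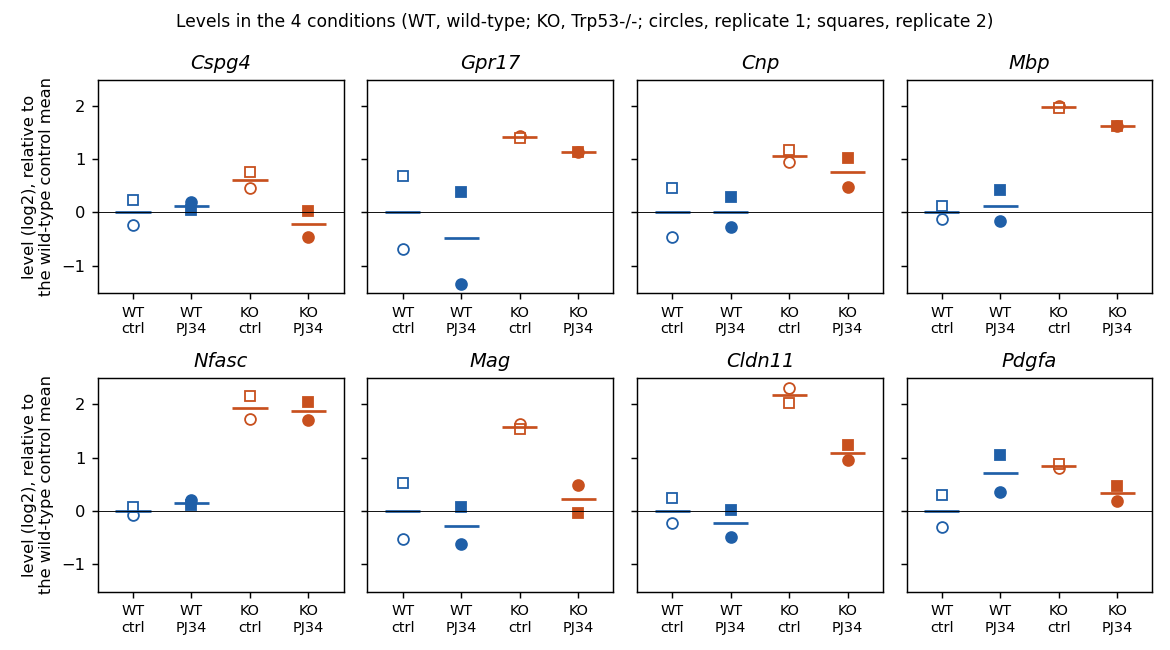
Levels of 4 lineage genes and 4 genes of the lists in the 4 conditions (y axis, log2 intensity relative to the wild-type control mean of the same probe; WT, wild-type; KO, Trp53-/-; ctrl, control). Open symbols are control, filled symbols PJ34, circles replicate 1, squares replicate 2, and bars are means. Mbp, Nfasc and Cldn11 stay above the wild-type controls in Trp53-/- cells with PJ34, while Cspg4 and Mag lie near the wild-type control level.

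Markers of other cell types also differed between the untreated genotypes, and their part in the results above was not tested. Of 7 astrocyte markers, 6 were tested and 4 were higher in *Trp53*-/- without the fold limit, where 4.66% of all genes were. Called were *Gfap*, the intermediate filament of astrocytes (6.44 and 7.23 in wild-type, 9.22 and 9.21 in *Trp53*-/-), and *S100b* (7.87 and 8.04 against 9.73 and 9.97). *Gfap* was well above background in the control channel of 1 of the 2 wild-type arrays. It thus passed the filter through *Trp53*-/- only and could hardly have been called lower. *Gjb6* was not well above background in any channel. The summed control signal of the list was 14.90 and 15.03 (log2) in wild-type and 15.26 and 15.16 in *Trp53*-/-. Of 8 neuronal markers, 6 were tested and *Rbfox3* and *Elavl3* were called higher, while *Snap25* was lower without the fold limit and *Neurod1* and *Stmn2* were above background in no control channel. The summed signal was 13.34 and 12.98 in wild-type and 12.84 and 12.91 in *Trp53*-/-. Of 6 markers of endothelium and pericytes *Kdr* was lower in *Trp53*-/- (-1.34, *q* = 0.0152), and the summed signal was 13.08 and 13.01 in wild-type and 11.87 and 11.72 in *Trp53*-/-. Of 6 microglial markers, 2 were tested and 0 were called, while *Aif1*, *Cx3cr1* and *Ptprc* were not well above background in any channel. Their summed signal was 12.59 and 12.83 in wild-type and 12.14 and 11.93 in *Trp53*-/-. With PJ34 in *Trp53*-/-, 3 astrocyte markers rose and *S100b* fell (-0.62, *q* = 0.00173) without the fold limit, while without replicate 2, 0 rose and *S100b* fell, and with median centring *S100b* was 0.14. *Gfap*, 1 of the 3, had ratios near 0 on replicate 1 and of 1.62 on replicate 2. Of the stem/progenitor markers, 2 rose and 2 fell in *Trp53*-/- (2 rose and 0 fell without replicate 2), and 0 of the neuronal, microglial and endothelial markers passed, with 1 neuronal marker at an unadjusted *p* below 0.05. In wild-type, 3 stem/progenitor markers rose and 3 fell, 2 neuronal markers and 1 microglial marker rose, and 1 astrocyte marker fell, all without the fold limit.

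The genes whose levels followed *Olig2* most closely over the 8 channel values of the 4 arrays were *Znrf1* (Pearson's r = 0.986), *Zfp710* (0.965), *Fam102a* (0.964), *Tuba1a* (0.963) and *Pgm2* (0.959), among 13603 genes compared. The channels of an array share a slide and its normalization, and the values of *Olig2* spanned 0.841 on the log2 scale, so that these likenesses are a description.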

How the data were processed

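RNA of wild-type and *Trp53*-/- NSPCs was measured on 4 arrays in 2 colours. Spots had been read by the authors in Feature Extraction (version 10.7.3.1). The deposited intensity values used here are the mean of each spot and the median of its local background, uncorrected. The log10 ratios deposited with them, made by the same software after background subtraction and dye normalization, served only as an alternative, converted to log2. A table of normalized values was not used, as only numbers name its columns.

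Background was corrected by normexp (offset 50) and ratios were normalized by loess within arrays with limma 3.58.1 in R 4.3.3. Control levels were normalized between arrays by quantiles of the mean intensity. Between 228 and 276 outlier spots per array were left out. On all arrays 0 spots were saturated. Replicate spots were averaged by probe. The filter on dim signals asked that 1 channel (for untreated levels, the control) exceed background well on both arrays of a genotype, which kept 26967 probes, and a gene was read from its brightest probe (19632 genes, 16862 for untreated levels). Symbols of 27235 probes (48.9%) were matched to RefSeq genes, and others are those of the files. Replicate 1 of wild-type was read with an older design file, which names 5363 probes differently, and the newer names were used.

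limma's linear model held a mean per genotype over the 4 arrays and gave *p*. SEs and intervals are limma's moderated ones, from a spread shared by both genotypes, and are not the spread of a genotype's own arrays. Storey's *q* used lambda from 0.05 to 0.95 over all genes tested. Fits were tested on simulated data. The number of arrays limits the precision. Members, lists, markers and tests were chosen with earlier results of these data known. Named genes of the lists are those called with the same sign on both arrays of a genotype, and the highest and lowest mean ratio in each genotype. Those of *Olig2* are the 5 highest correlations among kept genes with an SD of at least 0.2. Results for some list genes that the rule would name are not reported here, although the counts over lists include them. Single markers were named after their values were seen. Alternatives were 2 background settings, scanner ratios or signals, median centring, 2 filters, each genotype alone, a separate channel model, a replicate block, Benjamini-Hochberg adjustment, no fold limit, mean of probes, and leaving out each array.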

Additional observations from a re-analysis of the deposited data

Results flagged for a closer look

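The response to PJ34 differed between genotypes, by the test of the difference itself, for *Cspg4* (wild-type minus *Trp53*-/- 0.953, *q* = 0.0335), *Pdgfa* (1.22, *q* = 0.00197), *Mag* (1.07, *q* = 0.0139) and *Cldn11* (0.847, *q* = 0.0358), all with limma. None of them passed with the scanner software's ratios or with median centring. *Cspg4* is the 1 of them whose wild-type arrays had opposite signs (0.44 and -0.194), and *Pdgfa* the 1 whose genotypes had opposite signs on both arrays each, up in wild-type and down in *Trp53*-/-, although with median centring both were above 0. *Nfasc* also had opposite signs on the arrays of the genotypes, 0.288 and 0.0239 in wild-type and -0.0227 and -0.109 in *Trp53*-/-, but its difference of 0.222 did not pass the test (*q* = 0.371).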

How the results depend on the processing

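Each value of a member was computed again under the alternatives, 495 times in all, of which 391 kept direction and side of the threshold, 22 moved past it, 50 fell short of it and 32 changed sign. The causes were not tested. Where 1 array was left out, the lone array of its genotype was assumed to vary like the others. Ratios of genes not well above background in a channel give no size.

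With median centring in place of loess, wild-type ratios turned to 0.37 (*Olig2*), 0.25 (*Nkx2-2*), 0.16 (*Pdgfra*), 0.13 (*Gpr17*) and 0.15 (*Ncan*). In *Trp53*-/- they turned to 1.04 (*Olig1*, then the 1 member called), 0.43 (*Olig2*), 0.46 (*Sox10*), 0.40 (*Nkx2-2*), 0.40 (*Pdgfra*), 0.59 (*Gpr17*), 0.58 (*Cnp*), 0.31 (*Mbp*), 0.41 (*Pdgfa*), 0.14 (*S100b*) and 0.28 (*Ncan*). The genotype difference turned to -0.0557 for *Olig1* and -0.0538 for *Olig2*. *Cnp* in wild-type was -0.0136 without background correction, -0.00327 with an offset of 16 and -0.0401 with scanner ratios. With the mean of its probes *Nkx2-2* turned to 0.0946 (difference) and 0.157 (untreated). With median-centred Cy3, untreated *Olig1* was 0.00257.

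Leaving out 1 array at a time gave ranges that crossed 0 in wild-type for *Olig1* (-0.0324 to 0.442), *Sox10* (-0.0861 to 0.142), *Cspg4* (-0.194 to 0.44), *Cnp* (-0.168 to 0.183) and *Mbp* (-0.0473 to 0.308), and in *Trp53*-/- for *Olig1* (-0.302 to 0.215) and *Gfap* (-0.00018 to 1.62). They also crossed 0 in the genotype difference for *Olig1* (-0.0105 to 0.506) and *Pdgfra* (-0.329 to 0.121; 0.0276 without replicate 1 of wild-type), and untreated for *Olig1* (-0.199 to 0.139), *Olig2* (-0.116 to 0.285) and *Nkx2-2* (-0.633 to 0.0665).

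With 1 array left out, 0 to 1 members were called in the genotype difference and 1 to 3 untreated. Without the fold limit, 1 to 4 passed in wild-type, 2 to 6 in *Trp53*-/-, 0 to 2 in the difference and 1 to 6 untreated. Dropping the fold limit moved the counts from 0 to 4 in wild-type, from 0 to 6 in *Trp53*-/-, from 0 to 1 in the difference and from 1 to 2 untreated. Of the counts without it, scanner ratios gave 0 in wild-type, 0 in *Trp53*-/- and 0 in the difference, and scanner Cy3 signals gave 1 untreated. In *Trp53*-/- an offset of 16, no filter on dim probes and Benjamini-Hochberg adjustment gave 3 each. In the difference no background correction, an offset of 16 and median centring gave 0 each. Untreated, an offset of 16, no filter, a strict filter and Benjamini-Hochberg adjustment gave 1 each, and median-centred Cy3 gave 0, with 0 called. A separate channel model over both channels called the same 3 members untreated as the replicate block below.

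Replicate numbers are shared between genotypes, but nothing says that they pair the cultures, and same-numbered arrays deviated together with r = -0.18 in the ratios and 0.0814 in the control levels. The replicate block called 3 members untreated, *Mbp*, *Gpr17* (*q* = 3.62e-06) and *Cnp* (*q* = 0.000959; 4 without the fold limit) in place of 1 (2), and changed no other count of members by over 1.5 times. With the numbers crossed, 3 were called untreated, and 2 passed without the fold limit in the difference.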
